A study of Mus musculus with 2 samples.

Results

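Musashi and Elavl proteins are 2 families of RNA-binding proteins of the vertebrate nervous system, and their 6 genes (Msi1, Msi2, Elavl1, Elavl2, Elavl3 and Elavl4) were taken by name from the 25778 genes counted by single-cell RNA sequencing in mouse retina. Musashi proteins bind short UAG-containing sequences through RNA recognition motifs, repress or promote translation of their targets in stem cells and glia, and promote inclusion of photoreceptor-specific exons in rods and cones. Elavl proteins, also called Hu proteins, bind U-rich and AU-rich sequences of messenger RNAs, and they stabilise many of these transcripts and affect their splicing and translation. Elavl1 (HuR) is made in nearly all cells, whereas Elavl2 (HuB), Elavl3 (HuC) and Elavl4 (HuD) are neuronal, and in retina an antibody against HuC and HuD is a standard stain for amacrine and ganglion cells.

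Retinas of mice aged 30 days (P30) were compared between 2 genotypes with 1 library each. Ptbp1-Ctrl was Chx10-Cre, a transgene that expresses Cre recombinase in retinal progenitors, and Ptbp1-KO was Chx10-Cre;Ptbp1lox/lox, in which lox sites surround the promoter and the first exon of Ptbp1. Both genotypes therefore carried the Cre transgene, and the control had no floxed allele. The study used Ptbp1, a repressor of neuronal exons whose loss has been discussed as a route from glia to neurons, and stained HuC/D together with NeuN, the product of Rbfox3, to count amacrine and ganglion cells, so the RNA of the Hu genes was examined in each cell type of both libraries. With 1 mouse per genotype no test between genotypes was possible, every difference compares these libraries only, and the 95% intervals given account for counting error alone.

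The libraries held 16421 cells with 32758836 unique molecular identifiers (UMIs) in Ptbp1-Ctrl and 14522 cells with 35328593 UMIs in Ptbp1-KO, and 63 cell barcodes occurred in both. Cell names are those of the deposited cell table: Müller glia (MG), photoreceptors split into rods and cones, and bipolar (BC), amacrine (AC), horizontal (HC) and retinal ganglion (RGC) cells. The methods describe female mice, but both libraries carried UMIs of the Y-linked gene Uty (6164 and 7085) and almost none of Xist (5 and 6). Ptbp1, the targeted gene, had 294 UMIs in MG of Ptbp1-Ctrl and 6 in MG of Ptbp1-KO, and 255 and 4 UMIs in rods. The 3' reads lie outside the deleted part, which holds the promoter. Markers of rods, cones, BC, AC, MG and HC were each highest in the cells of that name. Cells named RGC held all 6 RGC markers but also a summed level of 6 rod markers of 18902 CPM (Ptbp1-Ctrl) and 22994 CPM (Ptbp1-KO), close to the 29648 and 26348 CPM of rods themselves and far above the 4977 and 4603 CPM of AC. CPM stands for counts per 1000000, a gene's UMIs divided by all UMIs of a cell type in a library. RGC (124 and 97 cells) and HC (17 and 7 cells) were too few to be set against all genes, so their values are given with counting intervals and no count of genes past a fold. Levels were not compared between genes, since the counts carry no length correction.

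Each gene was placed on the mouse genome build GRCm38, the assembly also named mm10, with the GENCODE M21 annotation, in which all 6 are protein-coding. Msi1 lies on chromosome 5 from 115429599 to 115455698 on the plus strand. The others lie on the minus strand, Msi2 on chromosome 11 from 88339382 to 88718513, Elavl1 on chromosome 8 from 4285382 to 4325413, Elavl2 on chromosome 4 from 91250763 to 91400785, Elavl3 on chromosome 9 from 22015005 to 22052023, and Elavl4 on chromosome 4 from 110203722 to 110351909. No stretch of 50 bases was shared between the annotated transcripts of any pair of the 6 genes.

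Promoter sequences were taken from RefSeq for build GRCm38.p6, whose table matched 5 of the 6 genes, all but Msi1. The 250 bases before the start are shown for Elavl3, which has 1 start in the table, and for the first listed of 4 starts of Elavl4. They were chosen because, among rods, cones, BC, AC and MG, they were the members most restricted to AC. Their products are also those that the HuC/D stain detects. Both windows lie on the minus strand, upstream of the GENCODE gene, and are written 5' to 3' along the gene. Capitals mark 3 motifs searched on both strands: TATAAA, the core of the element bound by the TATA-binding protein, CCAAT, the letters bound by NF-Y, and CAGCTG, an E-box.
Elavl3 (chr9:22052024-22052273): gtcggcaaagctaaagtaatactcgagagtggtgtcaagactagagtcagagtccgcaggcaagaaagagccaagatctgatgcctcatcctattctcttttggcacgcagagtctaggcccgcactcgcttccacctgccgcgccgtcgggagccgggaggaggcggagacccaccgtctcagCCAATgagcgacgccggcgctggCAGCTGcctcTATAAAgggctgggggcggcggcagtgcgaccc
Elavl4 (chr4:110351912-110352161): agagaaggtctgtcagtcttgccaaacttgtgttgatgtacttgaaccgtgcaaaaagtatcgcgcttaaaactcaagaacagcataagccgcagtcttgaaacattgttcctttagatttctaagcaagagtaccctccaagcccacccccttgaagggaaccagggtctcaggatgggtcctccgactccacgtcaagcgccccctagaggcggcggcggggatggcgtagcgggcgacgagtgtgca
In the Elavl3 window CCAAT began at position −66, the E-box at −43 and TATAAA at −33, counted from the base before the start as −1. In the Elavl4 window shown none of these letters occurred, while the other 3 Elavl4 starts each held CCAAT and 2 of them CAGCTG. Another motif searched, TAATCC, which photoreceptor homeodomain factors bind, occurred in neither window. Of 32851 RefSeq promoter windows of the same length, 12.4% held TATAAA, 33.8% CCAAT, 13.0% CAGCTG and 6.25% TAATCC. None of these motifs overlapped another in the windows shown, and a match describes letters only.

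**Figure D1:**
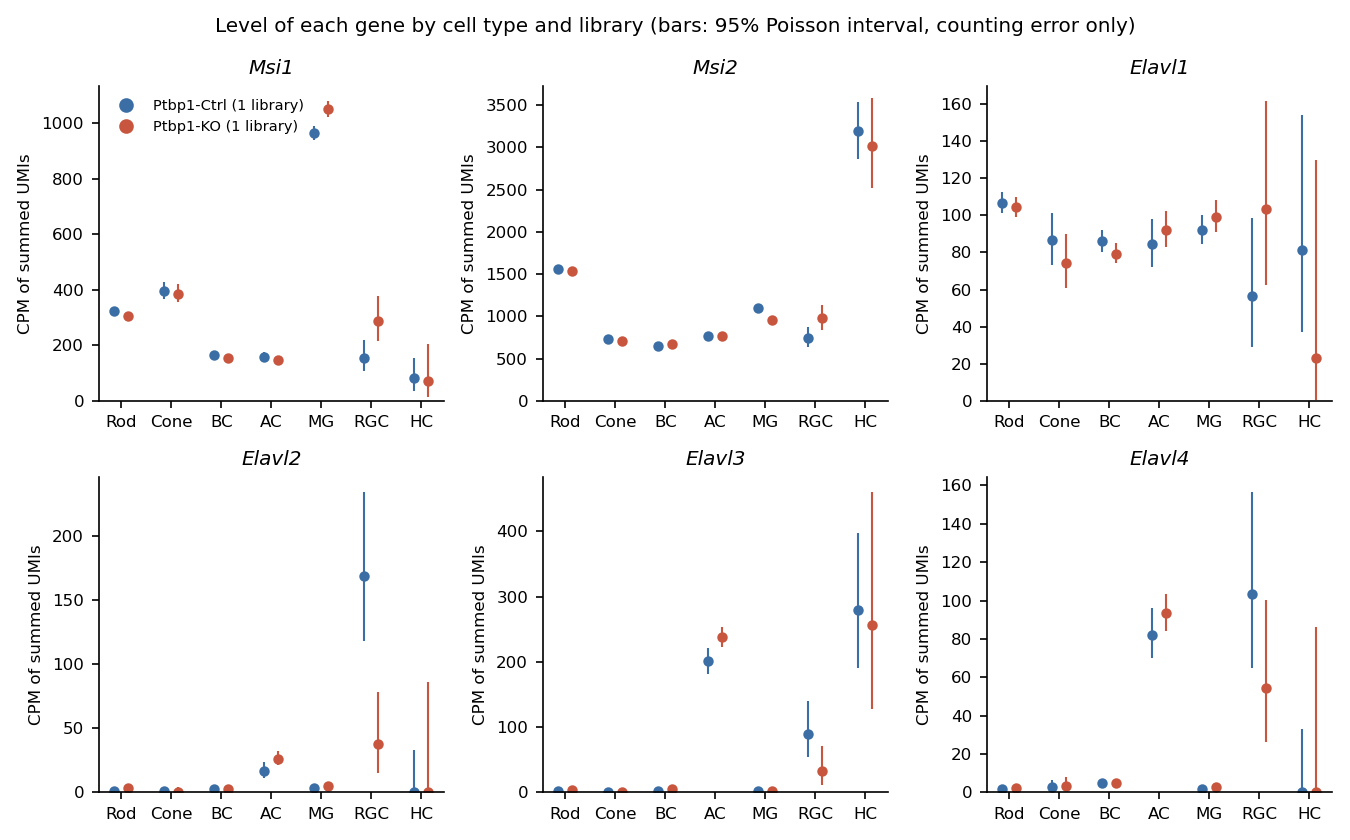
Level of each of the 6 genes in 7 cell types. The vertical axes give CPM of UMIs summed over the cells of a type and start at 0 with a separate range for each gene, blue points are Ptbp1-Ctrl, red points Ptbp1-KO, and lines are 95% Poisson intervals for counting error. Msi1 was highest in MG (964 and 1051 CPM), Elavl1 lay between 74.4 and 107 CPM in the 5 larger types, and Elavl2, Elavl3 and Elavl4 were near 0 in rods, cones, BC and MG.

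The Musashi genes were examined first, beginning with Msi1, a marker of neural stem cells and glia that also acts in photoreceptors. Msi1 was highest in MG, with 964 CPM in Ptbp1-Ctrl (interval 939 to 989.6, 5695 UMIs) and 1051 CPM in Ptbp1-KO (1023 to 1079.9, 5347 UMIs). Cones followed at 396 and 386 CPM and rods at 324 and 304 CPM. BC (163 and 153 CPM) and AC (158 and 148 CPM) had the lowest levels of the 5 larger types, and these neighbours in the order did not differ beyond the spread between the libraries. The MG level was 2.44 and 2.73 times that of cones. A level at least 2 times that of every other of the 5 types in both libraries was found for MG in 8.51% of 16581 genes, and Msi1 was the member in this group.

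At equal depth, with every cell thinned to 1000 UMIs and shallower cells left out, 64.2% of 1663 Ptbp1-Ctrl MG (61.8 to 66.5) and 64.5% of 1173 Ptbp1-KO MG (61.6 to 67.2) had an Msi1 UMI. The share in rods was 27.5% and 25.9%, in cones 29.7% and 26.4%, in BC 13.8% and 12.6%, and in AC 14.1% and 11.9%. Without thinning the MG shares were 92.7% and 95.2%, at median depths of 3333 and 4178 UMIs. Each of the 5 larger types had Msi1 above the level that free RNA would give, estimated per type as the median, over genes the type should lack, of the level divided by the library-wide level. For AC, the lowest of these in Msi1, this background fraction was 0.249 and 0.252, and the Msi1 level was 0.413 and 0.418 of the library-wide level.

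Between genotypes, the log2 ratio of Msi1 in Ptbp1-KO over Ptbp1-Ctrl was 0.12 in MG (0.07 to 0.18) and −0.09 in rods (−0.15 to −0.03). It was −0.04 in cones (−0.20 to 0.13), −0.10 in BC (−0.20 to 0.01) and −0.10 in AC (−0.30 to 0.10), all 3 intervals including 0. The MG difference was small, and at 1000 UMIs per cell it was 0.04. The level was higher in Ptbp1-KO in each of 3 MG clusters of the authors, with an interval excluding 0 in cluster 4 only. The rod difference had the same sign in 4 of 4 rod clusters, but each of these 4 intervals included 0. Rods were spread differently over the clusters in the libraries, with 45.9% and 58.7% in cluster 0 and 18.2% and 10.5% in cluster 3, where Msi1 was highest, and with clusters weighted alike the rod ratio was −0.04. Among rod clusters Msi1 was between 244 and 431 CPM, and among MG clusters between 710.0 and 1160 CPM, so that clusters of 1 type differed more from each other than the libraries did. Of the 10 BC clusters, cluster 21 was highest at 279.8 and 343 CPM and cluster 5 lowest at 104 and 108 CPM.

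Msi2, the paralog of Msi1 with overlapping targets, had a different order of cell types. Among the 5 larger types it was highest in rods, at 1561 CPM in Ptbp1-Ctrl (1539 to 1582) and 1537 CPM in Ptbp1-KO (1517 to 1557). MG followed with 1101 and 958 CPM, then AC with 765 and 767 CPM, cones with 735 and 708 CPM and BC with 652 and 669 CPM. The ranges of neighbouring types over the libraries did not overlap, although AC exceeded cones by only 1.04 and 1.08 times. Rods were 1.42 and 1.61 times MG and so did not reach the 2-fold difference from every other type, which held for rods in 2.39% of 16581 genes. At 1000 UMIs per cell, 74.8% and 74.9% of rods had an Msi2 UMI, against 49.7% and 47.1% of cones, the other photoreceptor type.

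HC had the highest Msi2 level of all 7 types, 3187 CPM in Ptbp1-Ctrl (2863 to 3537, 353 UMIs) and 3010.4 CPM in Ptbp1-KO (2513 to 3577, 129 UMIs). All 17 HC of Ptbp1-Ctrl and all 7 of Ptbp1-KO had an Msi2 UMI after thinning to 1000 UMIs, the lower bounds of these shares being 80.5% and 59.0%. The 4 HC markers summed to 6527 and 5041 CPM in these cells and to 123 and 162 CPM in AC, with which HC shared an author cluster. The level in HC was 2.04 and 1.96 times that of rods, although rod markers in HC were low at 2058 and 2800.4 CPM.

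The log2 ratio of Msi2 was −0.20 in MG (−0.26 to −0.15), and its size was under 0.06 in the other 4 of the 5 larger types: −0.02 in rods (−0.05 to 0.01), −0.05 in cones (−0.18 to 0.07), 0.04 in BC (−0.01 to 0.09) and 0.00 in AC (−0.09 to 0.09). Of the 5 larger types, MG was thus the one in which Msi1 and Msi2 had opposite signs with both intervals excluding 0. Msi2 was lower in Ptbp1-KO in 3 of 3 MG clusters, with 1081 and 947 CPM in cluster 4, 1627 and 1271 CPM in cluster 16, and 922 and 873 CPM in cluster 22. The interval of the ratio excluded 0 in clusters 4 and 16 but not in cluster 22. The share of MG with an Msi2 UMI at 1000 UMIs was 63.0% (60.6 to 65.3) in Ptbp1-Ctrl and 59.0% (56.1 to 61.8) in Ptbp1-KO. Over 8 other ways of processing the ratio stayed between −0.25 and −0.16.

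Rod RNA moved in the same direction in these cells. The 6 rod markers, all of them detected, summed to 4738 CPM in MG of Ptbp1-Ctrl and 3664 CPM in MG of Ptbp1-KO, and cluster by cluster to 4545 and 3678 CPM in cluster 4, 9641 and 6014 CPM in cluster 16, and 3113 and 1909 CPM in cluster 22. Cluster 16 had both the highest rod marker sum and the highest Msi2 level of the MG clusters. After subtraction of the background the MG ratio was −0.16, and without the tenth of cells richest in markers of other types it was −0.19 (−0.185 before rounding). The part of rod RNA in the difference beyond these values was not tested.

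**Figure D2:**
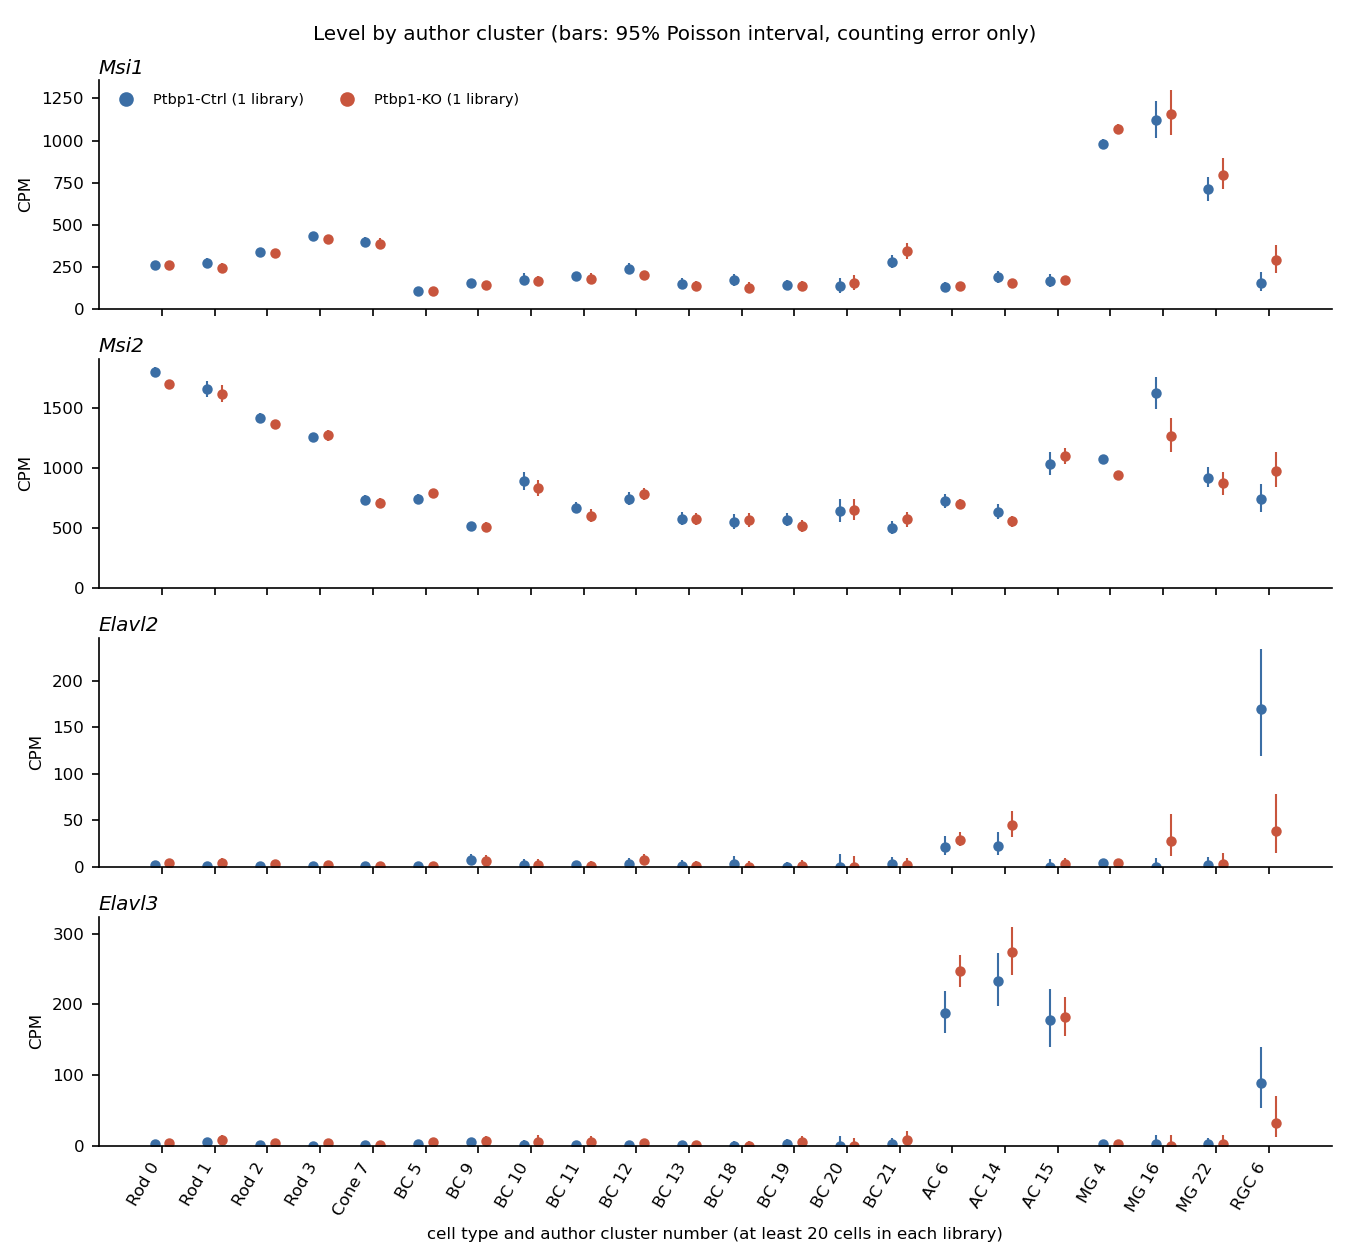
Levels of Msi1, Msi2, Elavl2 and Elavl3 in each author cluster with at least 20 cells in both libraries. The vertical axes give CPM from 0, the horizontal axis the cell type and cluster number, blue points are Ptbp1-Ctrl, red points Ptbp1-KO, and lines are 95% Poisson intervals for counting error. Msi2 lay between 1257 and 1809 CPM in the rod clusters, and Elavl3 between 177 and 274 CPM in the AC clusters and at most 8.74 CPM in rod, cone, BC and MG clusters.

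Elavl1 encodes HuR, which shuttles between nucleus and cytoplasm and stabilises AU-rich transcripts, in competition with decay factors such as tristetraprolin. Its level was even across the 5 larger types. Rods had 107 and 104 CPM, MG 92.3 and 99.3 CPM, AC 84.3 and 92.0 CPM, BC 85.9 and 79.4 CPM and cones 86.5 and 74.4 CPM. The highest of the 5 types was 1.26 times the lowest in Ptbp1-Ctrl and 1.40 times in Ptbp1-KO, and AC, BC and cones did not differ beyond the spread between the libraries. Of 4268 genes with a mean of at least 50 CPM, 12.8% were as even, with a highest type under 1.5 times the lowest in both libraries.

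The share of cells with an Elavl1 UMI at 1000 UMIs ran, over the 5 larger types, from 5.41% in cones of Ptbp1-KO to 10.2% in rods of Ptbp1-KO. The log2 ratio of Elavl1 was −0.03 in rods (−0.14 to 0.08), −0.22 in cones (−0.59 to 0.15), −0.11 in BC (−0.25 to 0.03), 0.13 in AC (−0.14 to 0.40) and 0.11 in MG (−0.07 to 0.28). All 5 intervals included 0 and were widest in cones and AC, where the UMIs were fewest. Clusters of Elavl1 within a type lay close together, from 86.7 to 121 CPM over the 4 rod clusters of both libraries and from 66.8 to 103 CPM over the 10 BC clusters.

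The 3 neuronal Elavl genes shared 1 pattern across the larger types, being highest in AC in both libraries. A level in AC at least 2 times that of every other type was found for 4.60% of 16581 genes, and Elavl2, Elavl3 and Elavl4 were all in this group. Elavl3 was the most restricted of the 3, with 201 CPM in AC of Ptbp1-Ctrl (182 to 222, 393 UMIs) and 237 CPM in AC of Ptbp1-KO (222 to 253, 916 UMIs). BC had 2.35 and 4.88 CPM, rods 1.92 and 3.86 CPM, MG 1.86 and 1.77 CPM and cones 1.15 and 0.701 CPM. AC exceeded BC by 85.5 and 48.6 times, and BC and rods did not differ beyond the spread between the libraries. At 1000 UMIs, 16.8% of AC of Ptbp1-Ctrl (13.95 to 19.97) and 18.7% of AC of Ptbp1-KO (16.2 to 21.4) had an Elavl3 UMI, as against 0.203% and 0.389% of rods and 0.120% and 0.0853% of MG. Without thinning 37.6% and 51.5% of AC had one, at median depths of 2600.5 and 3928 UMIs.

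In MG the Elavl3 level was below what free RNA would give. It was 0.121 and 0.0596 of the library-wide level, against background fractions of 0.205 and 0.161, so the 11 and 9 Elavl3 UMIs in MG are not read as expression. The same held for cones of Ptbp1-KO, with 1 UMI, at 0.0236 of the library-wide level against a background fraction of 0.0605. Rods (0.125 and 0.130 against 0.0673 and 0.0667) and BC (0.153 and 0.164 against 0.0904 and 0.110) were above it. The fraction is a median over markers of several cell types, so the carry-over of AC RNA alone was not estimated. The rod and BC values are thus not read as expression either.

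HC had an Elavl3 level as high as AC, 279.8 CPM (190.1 to 397, 31 UMIs) and 257 CPM (128 to 459, 11 UMIs), found in 11 of 17 and 4 of 7 cells, with 8 of the 11 UMIs of Ptbp1-KO in a single cell. The intervals of both HC values included the AC level. RGC-named cells had 89.2 CPM (19 UMIs) and 32.7 CPM (6 UMIs).

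Among the 5 larger types, Elavl4 was likewise highest in AC. Its AC level was 82.3 CPM in Ptbp1-Ctrl (70.1 to 96.0, 161 UMIs) and 93.3 CPM in Ptbp1-KO (83.9 to 103, 360 UMIs). BC followed at 4.90 and 4.69 CPM, cones at 2.87 and 3.51 CPM, MG at 1.86 and 2.75 CPM and rods at 1.76 and 2.07 CPM. MG and rods did not differ beyond the spread between the libraries. The thinned share in AC was 7.52% (5.58 to 9.87) and 6.95% (5.37 to 8.82). In contrast to Elavl3, no Elavl4 UMI was found in HC, where the intervals reach up to 33.3 CPM (Ptbp1-Ctrl) and 86.1 CPM (Ptbp1-KO). RGC-named cells had 103 CPM (64.7 to 156, 22 UMIs) and 54.5 CPM (26.1 to 100.2, 10 UMIs), overlapping the AC level.

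Elavl2 had fewer UMIs than the other neuronal members, 131 and 210 over the whole libraries. AC had 16.9 CPM in Ptbp1-Ctrl (11.6 to 23.7, 33 UMIs) and 26.4 CPM in Ptbp1-KO (21.6 to 32.1, 102 UMIs), which was 5.24 and 4.98 times MG, the next type, with 3.22 and 5.31 CPM. BC had 2.55 and 2.44 CPM, rods 1.23 and 3.31 CPM and cones 1.15 and 0.701 CPM, and BC and rods did not differ beyond the spread between libraries. No Elavl2 UMI was found in HC. RGC-named cells of Ptbp1-Ctrl had the highest level of any type, 169 CPM (118 to 234), from 36 UMIs in 17 of 124 cells.

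Within AC the neuronal Elavl genes separated the author clusters differently. Elavl2 was nearly absent from cluster 15, with 0 UMIs in 160 cells of Ptbp1-Ctrl and 3 UMIs in 253 cells of Ptbp1-KO, while cluster 6 had 21.1 and 29.1 CPM and cluster 14 had 22.4 and 44.4 CPM. In Ptbp1-KO the upper bound in cluster 15, 9.06 CPM, was below the lower bounds in cluster 6 (22.0 CPM) and cluster 14 (32.2 CPM). Cluster 15 was no poorer in AC RNA, as the 6 AC markers summed there to 1843 and 2054 CPM, the highest of the 3 clusters. Elavl3 was present in all 3 clusters, at 188 and 247 CPM in cluster 6, 233 and 274 CPM in cluster 14, and 177 and 182 CPM in cluster 15. Elavl4 ranged from 66.8 CPM in cluster 15 of Ptbp1-Ctrl to 102 CPM in cluster 6 of Ptbp1-KO. Msi2, by contrast, was highest in cluster 15 (1039 and 1104 CPM against 728 and 703 CPM in cluster 6).

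**Figure D3:**
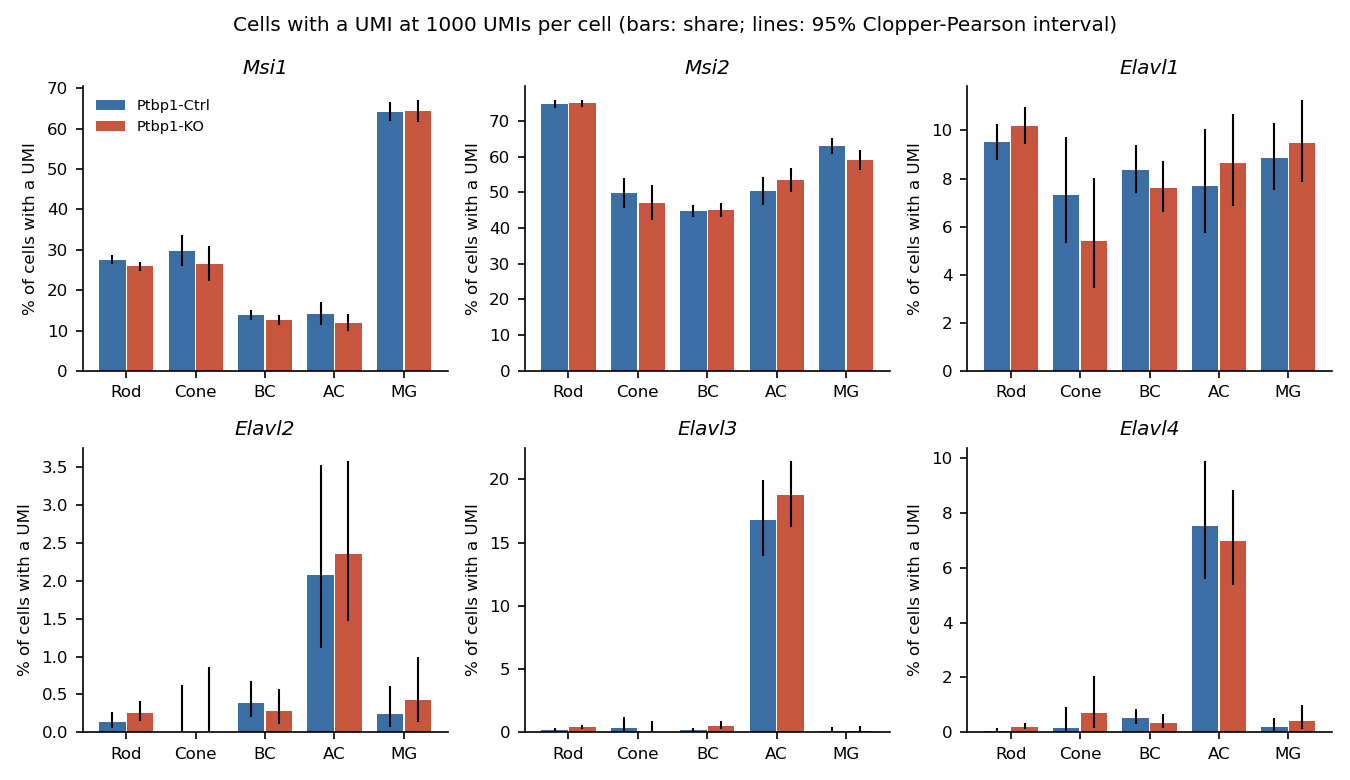
Share of cells with a UMI of each gene after thinning every cell to 1000 UMIs. Bars start at 0 and give the percent of cells of a type, blue for Ptbp1-Ctrl and red for Ptbp1-KO, lines are 95% Clopper-Pearson intervals, and the vertical range differs between genes. Shares of both libraries were within 5 percentage points of each other in each of the 5 types drawn, and Elavl3 reached 16.8% and 18.7% in AC and at most 0.519% in rods, cones, BC and MG.

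The neuronal Elavl genes were then compared between genotypes. In AC the log2 ratio was 0.65 for Elavl2 (0.07 to 1.26), 0.24 for Elavl3 (0.07 to 0.42) and 0.18 for Elavl4 (−0.09 to 0.46). All 3 values were above 0. Elavl3 was higher in Ptbp1-KO in 3 of 3 AC clusters, and its interval excluded 0 in cluster 6 only. The 6 AC markers moved alike in these cells, all of them detected, from 1513 to 1842 CPM summed over AC and from 1507 to 1859, 1307 to 1597 and 1843 to 2054 CPM in clusters 6, 14 and 15. The 6 MG markers in AC were 639 CPM (Ptbp1-Ctrl) and 442 CPM (Ptbp1-KO). Median depth of AC was 2600.5 UMIs per cell for Ptbp1-Ctrl and 3928 for Ptbp1-KO, and the part of depth and of other cells' RNA in these ratios was not tested beyond the following alternatives. With cells thinned to 1000 UMIs the ratio of Elavl2 in AC was 0.31 and that of Elavl4 was −0.15, while Elavl3 stayed at 0.23. The share of AC with an Elavl2 UMI was 2.08% (1.11 to 3.53) and 2.35% (1.46 to 3.58) at that depth, a difference not detectable beyond counting error.

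In rods, Elavl2 had 16 UMIs in the Ptbp1-Ctrl library and 48 in that of Ptbp1-KO (log2 1.43, 0.59 to 2.35), and Elavl3 had 25 and 56 UMIs (log2 1.01, 0.31 to 1.75). In Ptbp1-KO these UMIs lay in 47 and 55 separate rods, at most 2 in a cell. Both genes were higher in 4 of 4 rod clusters. The interval of the ratio excluded 0 only in cluster 0 for Elavl2 (9 and 28 UMIs) and only in cluster 3 for Elavl3 (1 and 9 UMIs). Elavl4 had 23 and 30 UMIs in rods (0.23, −0.60 to 1.08). Its ratio was 2.05 at 1000 UMIs per cell, on 3 and 13 cells with a UMI, and −0.03 with the background subtracted. Rbfox3, the NeuN gene stained with HuC/D in the study, also had more UMIs in rods of Ptbp1-KO, 49 against 21 (log2 1.07, 0.31 to 1.88). All of these are levels under 4 CPM, and thinned shares of 0.136% and 0.259% for Elavl2 and 0.203% and 0.389% for Elavl3.

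Values that moved with these rod levels were the library-wide level of Elavl3, which was 15.4 CPM (Ptbp1-Ctrl) and 29.7 CPM (Ptbp1-KO), and the library-wide levels of Elavl2 (3.999 and 5.94 CPM) and Elavl4 (8.24 and 13.2 CPM). AC numbered 676 in Ptbp1-Ctrl and 945 in Ptbp1-KO. The 6 AC markers, all detected in rods, summed there to 52.1 and 63.6 CPM, and the 6 RGC markers, also all detected, to 8.82 and 13.7 CPM. The part of RNA of these cells in the rod values was not tested beyond the following. For Elavl3 the rod level stayed at nearly the same fraction of the library-wide level, 0.125 and 0.130, whereas for Elavl2 that fraction was 0.307 and 0.557. With the background subtracted the log2 ratio in rods was 1.61 for Elavl2 and 1.09 for Elavl3. That background is a median over BC, AC and MG markers together and is not specific to AC RNA. Elavl3 in BC showed the same direction, with 23 UMIs in the Ptbp1-Ctrl library and 50 in that of Ptbp1-KO (log2 1.06, 0.32 to 1.84). It was higher in 7 of 10 and lower in 1 of 10 BC clusters, and in no BC cluster did the interval exclude 0. AC markers in BC were 15.6 and 24.8 CPM. Over the alternatives this BC ratio was between 0.76 and 1.67.

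In MG, the cells in which neuronal conversion after Ptbp1 loss has been asked about, Elavl3 (11 and 9 UMIs) and Elavl4 (11 and 14 UMIs) did not differ beyond counting error. Their log2 ratios were −0.07 (−1.52 to 1.33) and 0.56 (−0.68 to 1.85), wide enough to leave differences above 2-fold undetected, and Elavl4 in MG was close to its background (0.226 and 0.208 of the library-wide level against 0.205 and 0.161). Elavl2 had 19 UMIs in 1720 MG and 27 in 1184 (log2 0.72, −0.18 to 1.65). Of these, 7 lay in cluster 16 of Ptbp1-KO and 0 in cluster 16 of Ptbp1-Ctrl. The 6 RGC markers in cluster 16 also differed, at 16.2 and 67.5 CPM in sum, and their part in these 7 UMIs was not tested.

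RGC-named cells went the other way. Elavl2 had 36 UMIs in the Ptbp1-Ctrl library and 7 in that of Ptbp1-KO (169 and 38.1 CPM), a log2 ratio of −2.15 (−3.56 to −0.96). Elavl3 had 19 and 6 UMIs (−1.45, −3.06 to −0.07) and Elavl4 22 and 10 (−0.92, −2.17 to 0.22), whereas Msi1 had 33 and 53 UMIs (0.90, 0.24 to 1.57). A single cell of Ptbp1-Ctrl held 8 of the 36 Elavl2 UMIs, and without the richest cell of each library the ratio was −2.58. The 6 RGC markers in these cells were also lower in Ptbp1-KO, 2511 and 1520 CPM in sum, with Sncg at 953 and 408 CPM and Nefl at 559 and 332 CPM, while the rod markers were higher. Fewer ganglion cells among the cells so named and less RNA per ganglion cell cannot be told apart here.

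**Figure D4:**
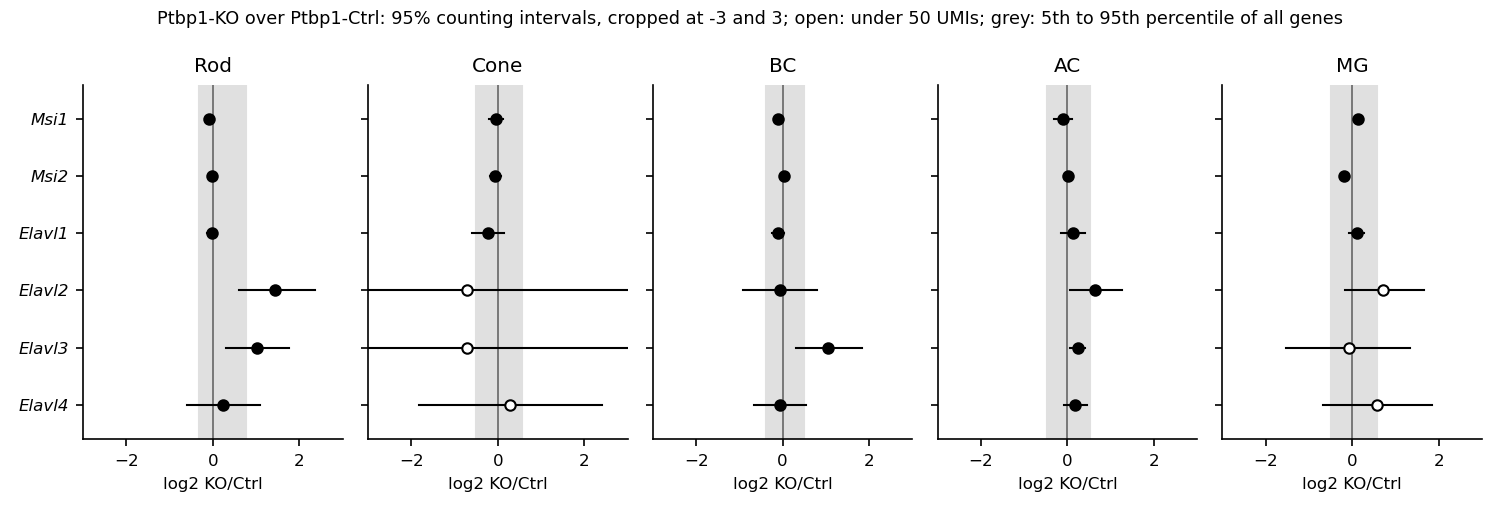
Log2 ratio of Ptbp1-KO over Ptbp1-Ctrl for each gene in 5 cell types. Points are ratios of summed CPM with 95% conditional binomial intervals cropped at −3 and 3, open points have under 50 UMIs over both libraries, and grey bands span the 5th to the 95th percentile of all genes with at least 50 UMIs in that type. Among filled points, Elavl2 and Elavl3 in rods (1.43 and 1.01), Elavl3 in BC (1.06) and Elavl2 in AC (0.65) lay outside the bands, and Msi1, Msi2 and Elavl1 inside them in every type.

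The members were set against all genes with at least 50 UMIs over both libraries, counting a gene as past the fold when its log2 ratio was beyond 0.5 in either direction. In rods 13.4% of 12742 genes were past it, 11.5% upward and 1.88% downward, and 2 of the 6 members were, Elavl2 and Elavl3. In cones 11.5% of 7968 genes were past the fold, and none of the 3 members with enough UMIs was. In BC it was 7.99% of 13070 genes and 1 of 6 members (Elavl3), in AC 9.86% of 10796 genes and 1 of 6 members (Elavl2), and in MG 11.0% of 12080 genes and none of 3 members. The median log2 ratio over all 6 members was 0.10 in rods, −0.14 in cones, −0.06 in BC, 0.15 in AC and 0.12 in MG, against medians over all such genes of 0.07, −0.01, 0.01, −0.00 and −0.00. In cones and MG the member medians include the 3 members with under 50 UMIs, so the compared sets are unlike there. The 3 members with more than 100 UMIs in each of the 5 types of both libraries, Msi1, Msi2 and Elavl1, were past the fold in none of the 5 types.

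Genes with which these proteins act were examined from lists. Of 5 genes with photoreceptor exons that depend on Musashi proteins (Ttc8, Cep290, Cc2d2a, Cacna2d4 and Slc17a7), 1 was past the fold. It was Cep290, a protein of the ciliary transition zone, in MG, where 11.0% of all genes were past the fold. Its level there was 115 CPM (Ptbp1-Ctrl) and 74.5 CPM (Ptbp1-KO) (log2 −0.63, −0.81 to −0.44), and it was lower in the other 4 of the 5 larger types too, at −0.16 in rods, −0.40 in cones, −0.35 in BC and −0.40 in AC, with no interval including 0. In RGC-named cells the ratio was 0.31 on 46 and 49 UMIs (−0.30 to 0.92). Rods, whose markers were lower in MG of Ptbp1-KO, had 523 and 467 CPM of Cep290, and the part of rod RNA in the MG value was not tested. The counts are per gene and do not resolve exons. Of 4 translation targets and partners of Musashi proteins, Cdkn1a, a cell-cycle inhibitor, was past the fold in MG (19.8 and 32.4 CPM, log2 0.71, 0.36 to 1.07). This was 1 of 4 with enough UMIs in MG, beside 11.0% of all genes. Numb, a Notch antagonist repressed by Msi1, was past it in cones (98.0 and 140.3 CPM, log2 0.52, 0.22 to 0.82) and at −0.06 in MG. In cones this was 1 of 3 with enough UMIs, beside 11.5% of all genes.

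None of 6 ligands and transport receptors of HuR (among them Tnpo1, Tnpo2, Anp32a and Xpo1) was past the fold in any of the 5 types. Of all genes, 13.4% were past it in rods, 11.5% in cones, 7.99% in BC, 9.86% in AC and 11.0% in MG. Tnpo1, transportin, which carries HuR into the nucleus, was lower in all 5. Its ratios ran from −0.37 in cones (342 and 264 CPM) and in MG (305 and 237 CPM) to −0.25 in AC. The share of all genes lower in all 5 types was not computed. Of 7 factors that bind AU-rich elements and promote decay or silencing, Zfp36, which encodes tristetraprolin, was past the fold in BC. It had 25 and 44 UMIs there (log2 0.75, 0.01 to 1.52), and no other with enough UMIs was past the fold in any type. In BC this was 1 of 6 with enough UMIs, beside 7.99% of all genes.

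Among 8 mRNAs that Elavl proteins bind, Vegfa, whose transcript HuR stabilises, was lower in rods (15.7 and 8.62 CPM, log2 −0.87, −1.20 to −0.54) and cones (101 and 65.9 CPM, log2 −0.61, −0.99 to −0.24). In MG, where Vegfa was highest, the ratio was 0.07 (−0.06 to 0.19). Mapt, which encodes tau, was lower in MG (119 and 72.8 CPM, log2 −0.71, −0.90 to −0.53) and higher in AC and BC, at 0.26 in both. Ccnd1, cyclin D1, was also lower in MG (40.6 and 28.1 CPM, log2 −0.53, −0.84 to −0.23). In AC, Camk2a was higher (18.9 and 31.6 CPM, log2 0.74, 0.20 to 1.31) and Bdnf lower (54.2 and 35.3 CPM, log2 −0.62, −0.997 to −0.24). Past the fold were thus 1 of 6 of these mRNAs with enough UMIs in rods, 1 of 3 in cones, 0 of 8 in BC, 2 of 8 in AC and 2 of 7 in MG, beside 13.4%, 11.5%, 7.99%, 9.86% and 11.0% of all genes in these types.

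Of 5 genes whose proteins were stained to count cells, other than the Hu genes, Rbfox3 was past the fold in rods as given above, and Sox9, a glial transcription factor, was past it in rods (67 and 51 UMIs, −0.55, −1.10 to 0.00) and AC (31 and 40 UMIs, −0.61, −1.32 to 0.11), with intervals that included 0. In MG, where Sox9 belongs, its ratio was −0.24. Arr3, cone arrestin, and Rbpms, a ganglion cell gene, were past the fold in MG at 0.52 and 0.51.

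The genes most like each member were sought by the Pearson correlation of log2(CPM + 1) over 42 sums of author cluster by library, each of at least 50 cells, among 12099 genes. The sums share libraries, and both sums of a cluster share their cell types, so the coefficients are descriptions. The sums of cluster 6 mix AC, RGC-named cells and HC. Msi1 was most like Crb1 (r = 0.926), a polarity protein of MG and photoreceptor junctions, Mfge8 (0.907) and Lman1 (0.904). Elavl3 was most like Glra2 (0.904), a glycine receptor subunit, Gm14204 (0.899) and Necab1 (0.898). Elavl4 was most like Cdh7 (0.838), Cacng5 (0.817) and B4galnt1 (0.815), and Elavl2 was most like the axon guidance receptor gene Robo1 (0.823), Thy1 (0.779), a ganglion cell surface protein, and Gm48003 (0.751). Msi2 was most like Stk35 (0.875), Gtf2f2 (0.874) and Gulp1 (0.861). The coefficients of Elavl1 were lower, with Slc26a11 at 0.649, Aftph at 0.597 and Bclaf3 at 0.589.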

How the data were processed

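Retinas of 1 mouse per genotype were profiled with 10x Genomics 3' chemistry. Per the study's methods and processing notes, the authors aligned reads to mm10 with Cell Ranger 7.0.1 and used Seurat 4 and filtered cells by the numbers of genes and transcripts and by mitochondrial content. The gene annotation and the counting of introns were not given in the sources used here, nor was a removal of doublets, and no doublet caller was run. The deposited count table holds raw UMI counts, without normalization, for 30943 cells. The deposited cell table gives library, cluster, cell type and the percent of mitochondrial UMIs, and 2 of its columns of cell values were not used. In all 30943 cells the UMIs summed over genes matched the total in the cell table exactly.

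UMI counts were summed by library and cell type and given as CPM with exact Poisson intervals, ratios with exact conditional binomial intervals, and shares of cells with exact Clopper-Pearson intervals (95%, counting error only). No count model or test was run, because cells of 1 animal are not replicates, and the study's Wilcoxon test over cells was not used. A gene was compared across the 5 larger types where both libraries together held at least 50 UMIs. Python 3.11.15, numpy 2.4.6, scipy 1.17.1 and pandas 2.3.3 were used, with R 4.3.3, edgeR 4.0.16 (TMM) and DESeq2 1.42.0 (median of ratios) for scaling factors of alternatives only. The scripts were tested on simulated data. The genes named were the 6 members, Ptbp1, the genes of 6 lists past the fold with up to 4 others a list, and the 3 genes most like each member. Members and lists were chosen with earlier results of these data known.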

Additional observations from a re-analysis of the deposited data

Results flagged for a closer look

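For 4 of the 6 genes the ratio of Ptbp1-KO over Ptbp1-Ctrl had opposite signs in different cell types with counting intervals that excluded 0. The share of all genes meeting the same rule was not computed. None of these differences between types was tested, since each type had 1 library per genotype. The log2 ratio of Msi1 was 0.12 in MG and 0.90 in RGC-named cells, and −0.09 in rods. That of Msi2 was 0.39 in RGC-named cells and −0.20 in MG. Elavl2 stood at 1.43 in rods and 0.65 in AC, and at −2.15 in RGC-named cells. Elavl3 stood at 1.01 in rods, 1.06 in BC and 0.24 in AC, and at −1.45 in RGC-named cells. The RGC values rest on 6 to 180 UMIs per library and gene, in cells whose rod marker sum was 18902 and 22994 CPM. Msi2, Elavl2 and Elavl3 met the rule only through RGC-named cells. With RGC-named cells set aside, Msi1 alone met it, by its values in MG and rods. Over the other ways of processing, the Msi1 ratio ran from 0.04 to 0.17 in MG and from −0.16 to −0.04 in rods.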

How the results depend on the processing

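No paired analysis was possible because each genotype had 1 library, and for the same reason no library could be left out. Scaling by TMM or median of ratios, thinning to 1000 UMIs, background subtraction, 2 filters on cells, and weighting by cluster or by cell were tried. Of the recomputed log2 ratios 225 stayed within the counting interval of the reported value and 11 moved out of it. All 37 medians over members stayed within the median half-width of the members' intervals, a wide tolerance where UMIs are few. The rod median ran from −0.03 with clusters weighted alike to 0.48 at 1000 UMIs per cell. The cone median, reported as −0.14, was 0.14 without the cells richest in other types' markers. The number of members past the fold was within 1.5 times in 48 cases and moved in 2: in AC it was 0 at 1000 UMIs per cell and 0 for a fold threshold of 1, against 1 (Elavl2, 33 and 102 UMIs). Thinning put Elavl4 in rods at 2.05, on 3 and 13 cells with a UMI, and Msi1 in MG at 0.04. The cause of these moves was not tested. Of the 5 larger types, the one with the highest level kept its place for each gene in the 6 alternatives run for the order of types (scaling within a type was not among them). Background subtraction gave no ratio where a corrected level fell to 0. The Elavl2 ratio without the richest cell in RGC was chosen after seeing the data. The percent of all genes past the fold depended on the count minimum, at 20 and 200 UMIs being 20.1% and 5.83% in rods, 18.3% and 4.07% in cones, 12.8% and 2.88% in BC, 15.5% and 3.16% in AC, and 5.75% at 200 UMIs in MG. Of shares of cells, 124 moved with the depth of thinning and 56 stayed within their interval. Depth limits Elavl2, Elavl3 and Elavl4 in rods, cones, BC and MG, where levels were under 6 CPM.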
